A study of Mus musculus with 6 samples.

Results

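The mouse *Cyp4a* genes encode cytochrome P450 enzymes of the endoplasmic reticulum that place a hydroxyl group on the terminal (omega) carbon of fatty acids. Their products are oxidized further to dicarboxylic acids, which are shortened in peroxisomes, and omega-hydroxylated arachidonic acid is a vasoactive lipid. In liver, *Cyp4a10* and *Cyp4a14* are classic targets of the fatty acid receptor PPAR-alpha and are induced by fasting, whereas *Cyp4a12a* and *Cyp4a12b* are known as male-biased genes that depend on androgen and growth hormone. The 6 genes described here are *Cyp4a10*, *Cyp4a14*, *Cyp4a31*, *Cyp4a32*, *Cyp4a12a* and *Cyp4a12b*. They were chosen by name, with earlier results of these data known, out of 54115 annotated genes with deposited values.

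Liver RNA was sequenced from 3 wild-type (WT) and 3 *Sirt7* knockout (KO) mice. *Sirt7* encodes a nuclear NAD-dependent deacylase. All 6 mice were males of 24 months that had fasted for 16 h, and both genotypes were littermates from crosses of heterozygous mice on a C57BL/6J background. The sources name no cell type or time for the deletion, and no fed or young livers belong to the RNA-seq comparison, so every value below refers to old, fasted male liver.

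Each liver yielded 9994860 to 13424776 estimated reads on transcripts. *Sirt7* itself was at 45.5 to 55.2 CPM (read counts scaled to library size by the TMM method) in WT livers and at 28.6 to 41.7 CPM in *Sirt7* KO livers, without overlap, with a log2 fold change of -0.41 (SE 0.18) and an edgeR adjusted p of 0.42. Its full-length transcript of 10 exons had 381 to 429 reads in WT livers and 77.5 to 135 in *Sirt7* KO livers. A coding transcript of 6 exons had 0 to 65.3 reads in WT livers and 83.5 to 192 in *Sirt7* KO livers, and a transcript of 427 bases had 0 to 5.12 and 50.5 to 93.3 reads. Per length the gene went the other way, at 27.3 to 34.4 TPM (abundance scaled to transcript length) against 34.7 to 68.0. Summed hepatocyte markers lay at 44155 to 48745 CPM in WT livers and 45678 to 55667 CPM in *Sirt7* KO livers, so the labelled tissue was present in all 6 samples.

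3 livers stood apart in ways that touch the *Cyp4a* genes. *Sirt7* KO replicate 3 contained kidney tubule markers that were at or near 0 elsewhere, with *Kap* at 20.1 CPM, *Slc34a1* at 9.73 CPM and all 5 markers summing to 36.0 CPM. WT replicate 1 had a summed level of 4959 CPM for the male-biased liver genes listed further on, where the highest WT liver had 30751 CPM, and it held 154 CPM of the female-biased gene *Cyp2b9*, against 1.28 to 12.2 CPM in the other livers. *Sirt7* KO replicate 1 had the highest *Cyp4a10* and *Cyp4a14* of its genotype. For a number of results, values without these livers are given as well.

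Among the 6 genes, *Cyp4a10*, *Cyp4a31* and *Cyp4a32* are near copies of each other, as are *Cyp4a12a* and *Cyp4a12b*, which limits what a 75-base read can tell. The first 75 bases of each coding sequence, 1 read length, are shown to make this visible. In the first 4 lines capitals mark bases that differ from *Cyp4a10*, and in the last 2 lines capitals would mark bases that differ from *Cyp4a12a*. All lie in exon 1 on chromosome 4 of GRCm38.
Cyp4a10, chr4:115518322-115518396, plus strand: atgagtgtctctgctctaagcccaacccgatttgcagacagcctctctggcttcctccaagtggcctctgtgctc
Cyp4a14, chr4:115496039-115496113, minus strand: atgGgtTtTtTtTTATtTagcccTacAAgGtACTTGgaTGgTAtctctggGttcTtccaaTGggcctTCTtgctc
Cyp4a31, chr4:115563717-115563791, plus strand: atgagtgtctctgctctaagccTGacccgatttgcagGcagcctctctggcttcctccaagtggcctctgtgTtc
Cyp4a32, chr4:115600975-115601049, plus strand: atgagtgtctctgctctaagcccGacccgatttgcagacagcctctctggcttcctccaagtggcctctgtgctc
Cyp4a12a, chr4:115299128-115299202, plus strand: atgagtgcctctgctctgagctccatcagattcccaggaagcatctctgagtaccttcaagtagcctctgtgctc
Cyp4a12b, chr4:115411683-115411757, plus strand: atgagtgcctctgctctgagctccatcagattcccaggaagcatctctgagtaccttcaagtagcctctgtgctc

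Against *Cyp4a10*, the window of *Cyp4a32* differed at 1 base, that of *Cyp4a31* at 4 and that of *Cyp4a14* at 29. The windows of *Cyp4a12a* and *Cyp4a12b* were the same at every base, so a read from this window cannot be assigned to either gene. The same grouping held over whole coding sequences. *Cyp4a10* was identical to *Cyp4a32* at 97.2% of aligned positions and to *Cyp4a31* at 96.6%, but to *Cyp4a14* at 75.9% and to *Cyp4a12a* at 80.1%. *Cyp4a12a* and *Cyp4a12b* were identical at 98.5%, with 23 substitutions over 1527 bases.

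The bases that encode the heme-binding signature, in which a cysteine holds the iron of the P450, fall into the same 3 groups. They are shown with that codon in capitals, for the gene that represents each group.
Cyp4a10, coding bases 1345 to 1374: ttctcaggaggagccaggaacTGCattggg
Cyp4a14, coding bases 1339 to 1368: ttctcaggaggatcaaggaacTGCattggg
Cyp4a12a, coding bases 1342 to 1371: ttctcaggaggagcaaggaacTGCattggg
*Cyp4a31* and *Cyp4a32* had the sequence of *Cyp4a10* here, and *Cyp4a12b* had that of *Cyp4a12a*.

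Of the 31-base words in its transcripts, *Cyp4a14* shared few with any other gene and 98.0% were its own. The share of own words was 55.1% for *Cyp4a10*, 68.0% for *Cyp4a31*, 37.2% for *Cyp4a32*, 37.8% for *Cyp4a12a* and 37.1% for *Cyp4a12b*. For words of 75 bases the shares were 100% for *Cyp4a14*, 81.6% for *Cyp4a10*, 87.2% for *Cyp4a31*, 72.0% for *Cyp4a32*, 59.2% for *Cyp4a12a* and 58.7% for *Cyp4a12b*. The annotated main transcript of *Cyp4a32* holds 1530 bases, which is its coding length, so it has no annotated untranslated part to which reads could be assigned. Values of single copies other than *Cyp4a14* are therefore uncertain to the extent that the counting split shared reads, and the sums of near-identical copies are given beside them.

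In fasted old liver, the 2 PPAR-alpha-responsive genes *Cyp4a10* and *Cyp4a14* were lower in every *Sirt7* KO mouse than in any WT mouse, by 3.51-fold and 6.46-fold on average, whereas the male-biased *Cyp4a12a* was higher in every *Sirt7* KO mouse, by 2.47-fold on average. *Cyp4a31* and *Cyp4a32*, the minor copies of *Cyp4a10*, overlapped between genotypes, as did *Cyp4a12b*. None of the 6 passed an adjusted p of 0.05, and 3 of 6 had an unadjusted p under 0.05. In the same edgeR comparison 1 of 12524 tested genes (0.00798%) was called at an adjusted p under 0.05 with a fold change over 1.5, and 11.3% of tested genes had an unadjusted p under 0.05. The genotypes did not overlap for 3 of the 6 genes, against 16.8% of all tested genes. For 2 of these the *Sirt7* KO livers were below the WT livers (8.09% of all tested genes) and for 1 they were above (8.74%). Because the 6 genes were chosen with earlier results known, these counts beside the shares are descriptions, not independent tests.

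*Cyp4a10* (ENSMUSG00000066072.13, chr4:115518264-115533649, plus strand), the main fasting-induced copy, was at 2740, 3366 and 3752 CPM in WT livers and at 1774, 608 and 428 CPM in *Sirt7* KO livers. The highest *Sirt7* KO liver, replicate 1, stayed below the lowest WT liver, and the *Sirt7* KO livers spread far more widely than the WT livers. Mean levels were 3286 ± 510 CPM for WT and 936 ± 731 CPM for *Sirt7* KO (SD, n = 3 each), a 3.51-fold difference. On the log2 scale the fold change was -1.81 (SE 0.47) with an edgeR unadjusted p of 0.0039 and an adjusted p of 0.20. An exact permutation test of this value gave p = 0.1 (two-sided), the smallest that 3 against 3 mice allow. Of its reads, 98.9% to 99.5% were assigned to 1 transcript of 13 exons in every liver. In bulk liver, fewer cells that express a gene and less RNA per cell cannot be told apart.

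*Cyp4a14* (ENSMUSG00000028715.2, chr4:115486200-115496142, minus strand) is the other fasting-induced member and the 1 of the 6 that shares the least sequence. Its levels were 2751, 3182 and 2049 CPM in WT livers and 884, 268 and 82.8 CPM in *Sirt7* KO livers. *Sirt7* KO replicate 3 held the lowest value and replicate 1 the highest of the genotype, the same order as for *Cyp4a10*, and the groups did not overlap. The means were 2661 ± 572 CPM and 412 ± 420 CPM (SD, n = 3 each), 6.46-fold lower with *Sirt7* deleted. A log2 fold change of -2.69 (SE 0.70) had an edgeR unadjusted p of 0.0038 and an adjusted p of 0.20. A fitted fold of more than 4 toward lower levels in *Sirt7* KO mice was found for 0.256% of tested genes.

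*Cyp4a31* (ENSMUSG00000028712.12, chr4:115563649-115579015, plus strand) was near the lower end of what the depth resolves, at 9.48, 26.9 and 19.5 CPM in WT livers and 20.5, 2.44 and 5.59 CPM in *Sirt7* KO livers. These values rest on 23 to 296 reads per liver. *Sirt7* KO replicate 1 lay above 2 of the WT livers, and the log2 fold change of -0.96 (SE 0.65) had an adjusted p of 0.63. Its reads were split over 4 transcripts, and the complete transcript of 12 exons received 63.1 to 129 reads in WT livers, 108 in *Sirt7* KO replicate 1 and none in replicates 2 and 3.

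*Cyp4a32* (ENSMUSG00000063929.6, chr4:115600969-115621602, plus strand) did not follow *Cyp4a10*, although its coding sequence is the closest to it. It was at 27.9, 57.5 and 55.7 CPM in WT livers and at 60.7, 41.1 and 49.6 CPM in *Sirt7* KO livers. WT replicate 1 was lowest and *Sirt7* KO replicate 1 highest, with the other 4 livers between them. Its log2 fold change was 0.10 (SE 0.27, adjusted p 0.93), and its sign turned to -0.17 without WT replicate 1 and to -0.05 without *Sirt7* KO replicate 1. A transcript of 736 bases annotated as non-coding took part of its reads in every liver, 50.4 to 111 per liver against 279 to 641 for the coding transcript.

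*Cyp4a12a* (ENSMUSG00000066071.6, chr4:115299046-115332815, plus strand), a male-biased gene, was at 152, 505 and 344 CPM in WT livers and at 1225, 631 and 614 CPM in *Sirt7* KO livers. All 3 *Sirt7* KO livers exceeded the highest WT liver, and WT replicate 1 was the lowest. The means were 334 ± 177 CPM and 823 ± 348 CPM (SD, n = 3 each), 2.47-fold higher with *Sirt7* deleted. This corresponded to a fitted log2 fold change of 1.30 (SE 0.42) with an edgeR unadjusted p of 0.013 and an adjusted p of 0.29. With DESeq2 and average transcript length offsets, the design closest to that of the study, it was 1.32 with an adjusted p of 0.036, a setting that called 1.87% of tested genes (1.33% as higher) and none of the other 5 members. The sum of *Cyp4a12a* and *Cyp4a12b* did not pass with those offsets, at 1.16 (DESeq2 adjusted p 0.077). DESeq2 without the offsets called 1.77% of tested genes and no member.

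*Cyp4a12b* (ENSMUSG00000078597.2, chr4:115411624-115439034, plus strand), the near-identical partner, was at 58.8, 273 and 197 CPM in WT livers and at 262, 360 and 299 CPM in *Sirt7* KO livers. WT replicate 2 lay above *Sirt7* KO replicate 1, so the groups overlapped. The fitted log2 value was 0.80 (SE 0.44, adjusted p 0.55). Without WT replicate 1, which was low in male-biased genes, it was 0.38, and that of *Cyp4a12a* was 0.95.

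**Figure D1:**
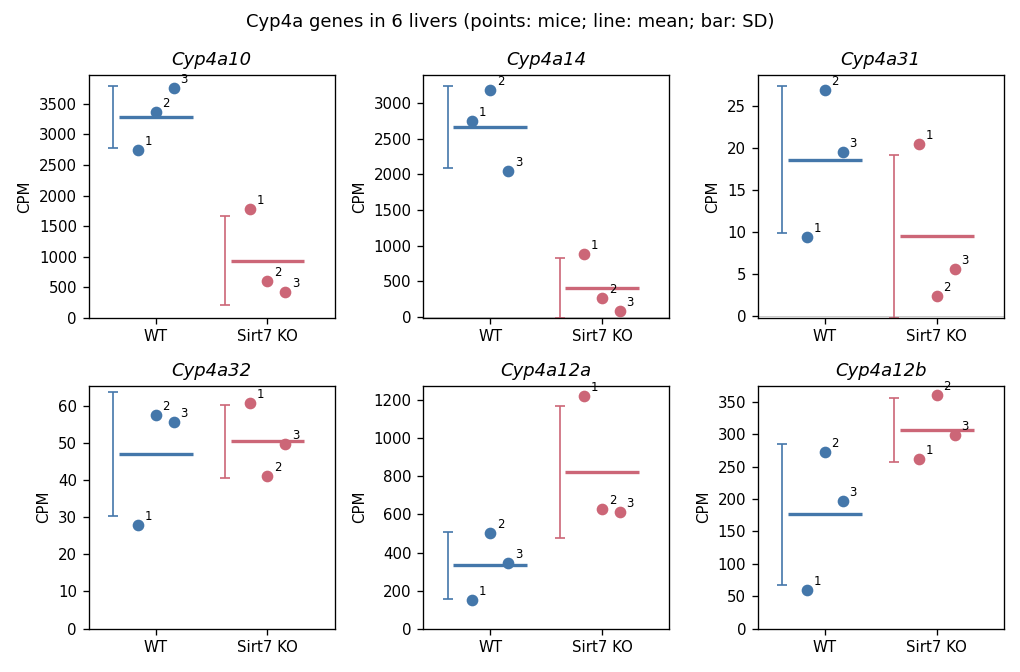
Level of each *Cyp4a* gene in CPM (linear axes that include 0, with scales that differ between panels) in 3 WT and 3 *Sirt7* KO livers; points are mice with their replicate number, lines are means and bars are SD. *Cyp4a10* and *Cyp4a14* show all *Sirt7* KO mice below all WT mice, *Cyp4a12a* shows the reverse order, and the other 3 genes overlap.

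Summing near-identical copies removes the doubt over which copy a read came from. The sum of *Cyp4a10*, *Cyp4a31* and *Cyp4a32* was 2778, 3450 and 3827 CPM in WT livers and 1855, 651 and 483 CPM in *Sirt7* KO livers. *Cyp4a10* made up most of this sum, so it kept the order of *Cyp4a10*, with a log2 fold change of -1.75 (SE 0.45, adjusted p 0.20). With *Cyp4a14* added, the sum was 5529, 6632 and 5875 CPM against 2739, 919 and 566 CPM, and the log2 fold change was -2.09 (SE 0.50, adjusted p 0.18). Here the 3 WT livers lay close together, with a coefficient of variation of 9.38%, whereas that of the *Sirt7* KO livers was 82.8%.

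The *Cyp4a12a* and *Cyp4a12b* sum was 211, 778 and 541 CPM in WT livers and 1487, 991 and 913 CPM in *Sirt7* KO livers. All *Sirt7* KO livers were above all WT livers in this sum, whatever the split of reads between the pair. The order of *Cyp4a12a* alone cannot be tested this way, because moving reads from copy to copy leaves the sum unchanged. The log2 fold change of the sum was 1.15 (SE 0.41) with an unadjusted edgeR p of 0.021 and an adjusted p of 0.34. It was 0.77 without WT replicate 1.

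All 6 genes together came to 5740, 7410 and 6416 CPM in WT livers and to 4226, 1910 and 1479 CPM in *Sirt7* KO livers. No *Sirt7* KO liver reached the lowest WT liver. The means were 6522 ± 840 CPM and 2538 ± 1477 CPM (SD, n = 3 each), a log2 ratio of -1.36. Without *Sirt7* KO replicate 1 the log2 ratio was -1.94. As a share of all gene reads, the family took 0.642%, 0.727% and 0.649% in WT livers and 0.417%, 0.181% and 0.141% in *Sirt7* KO livers.

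The make-up of the family also differed, on the per-length TPM scale that allows genes to be compared. In WT livers the order of mean levels was *Cyp4a10* at 1477 ± 174 TPM, *Cyp4a14* at 1012 ± 199 TPM, *Cyp4a12a* at 126 ± 61.1 TPM, *Cyp4a12b* at 67.2 ± 39.0 TPM, *Cyp4a32* at 37.0 ± 10.9 TPM and *Cyp4a31* at 8.51 ± 3.64 TPM (SD, n = 3 each). Over the 3 mice, the values of *Cyp4a12a* and *Cyp4a12b* overlapped, as did those of *Cyp4a12b* and *Cyp4a32*. In *Sirt7* KO livers *Cyp4a10* was at 401 ± 296 TPM and *Cyp4a12a* at 304 ± 115 TPM (SD, n = 3 each), with overlapping values, followed by *Cyp4a14* at 149 ± 149 TPM, *Cyp4a12b* at 117 ± 21.9 TPM, *Cyp4a32* at 39.6 ± 6.55 TPM and *Cyp4a31* at 4.47 ± 2.45 TPM (SD, n = 3 each). *Cyp4a14* lay above *Cyp4a12b* in *Sirt7* KO replicate 1 alone (316 against 94.8 TPM) and below it in replicate 2 (99.1 against 139 TPM) and replicate 3 (30.8 against 116 TPM). *Cyp4a12a* thus stood beside *Cyp4a10* in the *Sirt7* KO livers and far below it in the WT livers.

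Within single livers, *Cyp4a10* and its copies outweighed the *Cyp4a12* pair 15.5-, 5.22- and 8.32-fold by TPM in WT mice. The ratio was 1.49, 0.809 and 0.666 in *Sirt7* KO mice, so the pair was the more abundant in replicates 2 and 3. The share of *Cyp4a12a* in family TPM was 2.47%, 6.33% and 4.83% in WT livers and 26.6%, 30.6% and 38.2% in *Sirt7* KO livers. *Cyp4a14* took 43.5%, 39.1% and 28.9% in WT livers and 19.3%, 12.6% and 4.98% in *Sirt7* KO livers. Such shares are relative, so that a lower *Cyp4a10* and *Cyp4a14* raises the share of the rest at an equal level. Within the pair, the ratio of *Cyp4a12a* to *Cyp4a12b* was 1.73 to 2.56 in WT livers, 1.73 and 2.03 in *Sirt7* KO replicates 2 and 3, and 4.61 in replicate 1.

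**Figure D2:**
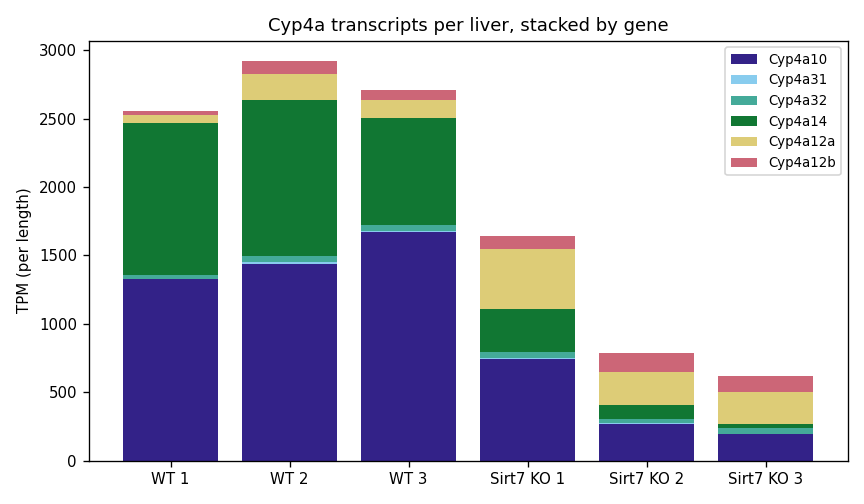
Stacked TPM (per length, linear axis from 0) of the 6 *Cyp4a* genes in each liver, 1 bar per mouse without error bars. The bars of WT mice are mostly *Cyp4a10* and *Cyp4a14*, and those of *Sirt7* KO replicates 2 and 3 hold more *Cyp4a12a* and *Cyp4a12b* than *Cyp4a10*.

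Because kidney tubules also express *Cyp4a* genes, the members were recomputed without *Sirt7* KO replicate 3, the liver with kidney markers. The log2 fold change was then -1.47 for *Cyp4a10*, -2.21 for *Cyp4a14*, 1.47 for *Cyp4a12a* and 0.82 for *Cyp4a12b*. That liver had the lowest *Cyp4a10*, *Cyp4a14* and *Cyp4a12a* of its genotype. The part of kidney RNA in any *Cyp4a* value was not tested.

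Without *Sirt7* KO replicate 1, which was nearest to the WT livers in *Cyp4a10* and *Cyp4a14* and farthest from them in *Cyp4a12a*, the log2 fold changes were -2.66 for *Cyp4a10* (edgeR adjusted p 0.0076) and -3.92 for *Cyp4a14* (adjusted p 0.020). Both then passed the threshold, as 1.95% of tested genes did in that fit, with 0.673% of tested genes called as lower. That liver was singled out by its *Cyp4a10* and *Cyp4a14* levels, so these adjusted p-values are not an independent test of those genes. No member passed with any other mouse left out. The sum of *Cyp4a10*, *Cyp4a31* and *Cyp4a32* was at -2.56 (adjusted p 0.0075), and *Cyp4a31* at -2.20 did not pass (adjusted p 0.070). *Cyp4a12a* was at 0.90 without that liver. The call for *Cyp4a10* and *Cyp4a14* thus turned on this 1 mouse, while the direction did not. Without the filter on low counts, 5 of the 6 genes passed the adjusted threshold in the 6 livers, all but *Cyp4a32*, where 2.27% of tested genes did.

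**Figure D3:**
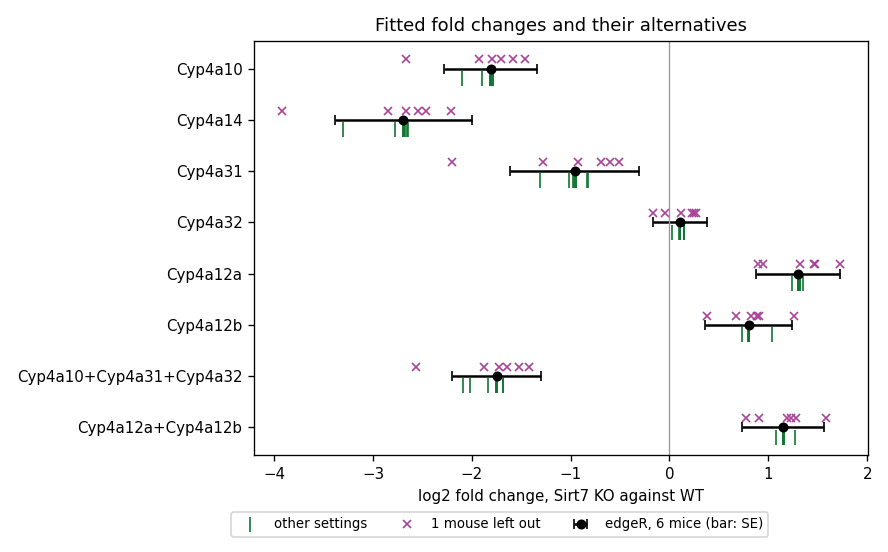
Log2 fold change of *Sirt7* KO against WT (horizontal axis) for each *Cyp4a* gene and the 2 merged rows; black points are the edgeR fit of 6 mice with SE bars, crosses are fits with 1 mouse left out and green ticks are other settings. Only *Cyp4a32* crosses 0, from -0.17 to 0.27 with 1 mouse left out.

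The members lie in a cluster on chromosome 4 of 483 kb, together with pseudogenes and with *Cyp4a29* and *Cyp4a30b*, which were not tested because they were at or near 0. From the start of *Cyp4a10*, that of *Cyp4a14* lies 22.1 kb away on the opposite strand, and those of *Cyp4a31* and *Cyp4a32* lie 45.4 and 82.7 kb away. *Cyp4a12a* and *Cyp4a12b* lie on the other side of *Cyp4a14*. The 3 genes with negative fold changes were thus next to each other among the tested genes, and *Cyp4a32* at the cluster's end was at 0.10. The nearest tested protein-coding genes outside were *Pdzk1ip1*, at a log2 fold change of 0.57 (SE 0.58, adjusted p 0.77), and *Cyp4b1*, at 0.20 (SE 0.26, adjusted p 0.83).

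**Figure D4:**
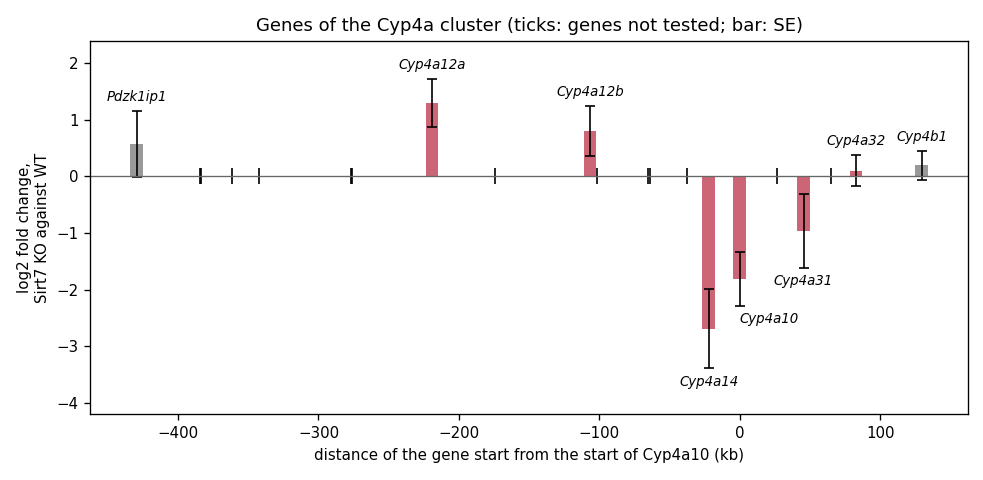
Log2 fold change of *Sirt7* KO against WT with SE bars (vertical axis) by distance of the gene start from the start of *Cyp4a10* in kb (horizontal axis); red bars are *Cyp4a* members, grey bars the flanking tested genes and ticks genes that were not tested. The bars of *Cyp4a12a* and *Cyp4a12b* point up, and those of *Cyp4a14*, *Cyp4a10* and *Cyp4a31* point down. *Cyp4a32* is at 0.10, *Pdzk1ip1* at 0.57 and *Cyp4b1* at 0.20.

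The enzymes that work with CYP4A were then compared. The gene lists here and below were chosen with earlier results of these data known. Their counts beside the share of all tested genes are therefore descriptions, not independent tests. Other *Cyp4* genes, which encode related fatty acid and xenobiotic hydroxylases, had positive fold changes in 8 of 8 tested genes. Of all 12524 tested genes, 6179 had positive and 6345 negative fold changes. The median log2 fold change of the 8 genes was 0.27, against -0.01 for all tested genes. *Cyp4f14*, an omega-hydroxylase of leukotrienes and fatty acids, was the 1 gene of 8 with an unadjusted p under 0.05, against 11.3% of all tested genes. It was at 55.2, 60.8 and 69.8 CPM in WT livers and at 121, 187 and 159 CPM in *Sirt7* KO livers. No liver overlapped, and the log2 fold change of 1.33 (SE 0.19) had an adjusted p of 0.055. Without WT replicate 3 the count of such genes was 3 of 8, and without WT replicate 1 it was 2 of 8.

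Among the 5 electron donors of P450 enzymes, *Por*, which encodes the reductase that feeds microsomal P450s, was at 608, 697 and 765 CPM in WT livers and at 348, 559 and 540 CPM in *Sirt7* KO livers. No *Sirt7* KO liver reached the WT range, with a log2 fold change of -0.52 (SE 0.21, adjusted p 0.39). *Cyb5r3*, a cytochrome b5 reductase, went the other way at 0.77 (SE 0.24, adjusted p 0.26), as did *Cyb5b* at 0.60 (SE 0.25, adjusted p 0.40).

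In the next step, omega-hydroxy fatty acids are oxidized to dicarboxylic acids. Of 7 tested genes, 1 had an unadjusted p under 0.05, against 11.3% of all tested genes. It was *Aldh3a2*, which encodes fatty aldehyde dehydrogenase. Its values were 261, 463 and 273 CPM in WT livers and 214, 141 and 147 CPM in *Sirt7* KO livers. Every *Sirt7* KO value was below every WT value, with a log2 fold change of -0.99 (SE 0.26, adjusted p 0.21). The median of the 7 genes was -0.15, and 3 of them had positive fold changes.

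Genes of the peroxisomal oxidation of dicarboxylic acids had negative fold changes in 11 of 13 tested genes, with a median of -0.45. 6 of 13 had an unadjusted p under 0.05, all lower in *Sirt7* KO mice, where 4.78% of tested genes had such a p in that direction. *Acot3*, a peroxisomal acyl-CoA thioesterase, was at 55.8, 193 and 192 CPM in WT livers and at 38.3, 12.1 and 5.49 CPM in *Sirt7* KO livers. As for *Cyp4a14*, *Sirt7* KO replicate 1 was highest and replicate 3 lowest in its genotype, and the log2 fold change was -2.98 (SE 0.69, adjusted p 0.17). *Acot4*, a thioesterase for dicarboxylic acyl-CoA, was at -1.53 (SE 0.38). *Ehhadh*, the bifunctional enzyme of this pathway, was at -1.57 (SE 0.56) with overlapping groups, *Acot8* at -0.68 (SE 0.24) and *Acaa1a*, a thiolase, at -0.45 (SE 0.17). None passed an adjusted p of 0.05, and the count with an unadjusted p under 0.05 was 2 of 13 without WT replicate 2, *Sirt7* KO replicate 2 or *Sirt7* KO replicate 3, 8 of 13 without *Sirt7* KO replicate 1 and 9 of 13 without WT replicate 1.

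Other PPAR-alpha target genes, those of mitochondrial oxidation, ketogenesis and lipid handling, had negative fold changes in 22 of 23 tested genes with a median of -0.64. 11 of 23 had an unadjusted p under 0.05, all lower in *Sirt7* KO mice, against 4.78% of all tested genes in that direction. *Retsat*, which encodes retinol saturase, was at 928, 2195 and 1742 CPM in WT livers and at 864, 270 and 300 CPM in *Sirt7* KO livers. Its *Sirt7* KO replicate 1 lay just under WT replicate 1, and the log2 fold change was -1.76 (SE 0.48, adjusted p 0.22). The medium-chain acyl-CoA dehydrogenase gene *Acadm* was at -0.61 (SE 0.18), its long-chain counterpart *Acadl* at -0.50 (SE 0.15), and the thioesterase genes *Acot1* and *Acot2* at -1.94 (SE 0.60) and -2.42 (SE 0.77). None passed adjustment. The count of genes with an unadjusted p under 0.05 was 20 of 23 without *Sirt7* KO replicate 1, 15 of 23 without WT replicate 1, 4 of 23 without WT replicate 2, and 5 of 23 without *Sirt7* KO replicate 2 or replicate 3. The share of all tested genes with such a p was not counted in these fits. With 1 mouse left out, 0 to 252 genes were called at the adjusted threshold.

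Of PPAR-alpha and its partners, 10 of 13 tested genes had negative fold changes, with a median of -0.30. *Ppara* was at 100, 163 and 150 CPM in WT livers and at 117, 83.0 and 77.4 CPM in *Sirt7* KO livers. WT replicate 1 lay below *Sirt7* KO replicate 1, and the log2 fold change was -0.57 (SE 0.23, adjusted p 0.38). *Rxra*, its dimer partner, was at 129, 129 and 127 CPM in WT livers and at 100, 93.5 and 99.3 CPM in *Sirt7* KO livers, without overlap, at -0.40 (SE 0.13, adjusted p 0.28). The corepressor gene *Ncor1* was at -0.48 (SE 0.20, adjusted p 0.42). In all, 3 of 13 tested genes had an unadjusted p under 0.05, all lower in *Sirt7* KO mice, against 4.78% of all tested genes in that direction, and 1 of 13 without WT replicate 2, WT replicate 3 or *Sirt7* KO replicate 3.

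The male-biased liver genes, to which *Cyp4a12a* and *Cyp4a12b* belong by their known regulation, had positive fold changes in 18 of 19 tested genes other than *Cyp4a*. Their median log2 fold change was 1.26, and 13 of 19 had an unadjusted p under 0.05, all higher in *Sirt7* KO mice, where 6.54% of tested genes had such a p in that direction. *Serpina12*, which encodes the serpin vaspin, was at 10.7, 17.8 and 21.3 CPM in WT livers and at 69.0, 83.3 and 73.3 CPM in *Sirt7* KO livers. The groups were far apart, with a log2 fold change of 2.18 (SE 0.24, adjusted p 0.054). *Hsd3b5*, a male-specific hydroxysteroid dehydrogenase of liver, was at 0.423, 2.72 and 7.62 CPM in WT livers and at 37.8, 70.5 and 126 CPM in *Sirt7* KO livers, at 4.41 (SE 0.75, adjusted p 0.10). *Cyp7b1*, an oxysterol hydroxylase, was at 1.18 (SE 0.20), *Cyp2u1*, a fatty acid hydroxylase, at 0.85 (SE 0.19) and *Nudt7*, a peroxisomal CoA diphosphatase, at 1.26 (SE 0.29).

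Without WT replicate 1, in which the summed level of these genes was lowest, 15 of 19 had an unadjusted p under 0.05 and the median was 0.90. Of 20 female-biased genes 7 passed the filter on low counts, and 4 of 7 were lower in *Sirt7* KO mice with an unadjusted p under 0.05. This was 4.78% over all tested genes, and *Cyp2b10* and *Cyp2c40* went the other way at 0.58 (SE 0.61) and 0.67 (SE 0.82). Without WT replicate 1 the count was 3 of 7 and the median moved from -1.10 to -0.79. The 20 genes summed to 239 to 353 CPM in WT livers and 36.2 to 96.4 CPM in *Sirt7* KO livers. That separation rested on *Acot3* in WT replicates 2 and 3 and on *Cyp2b9* in WT replicate 1, since without *Acot3* the sums were 297, 46.3 and 53.1 CPM in WT livers and 36.7, 84.3 and 30.7 CPM in *Sirt7* KO livers, which overlap. *Cyp2b9* had a log2 fold change of -3.85 (SE 1.26), with the 154 CPM of WT replicate 1 far above every other liver. *Cyp39a1* was at -2.04 (SE 0.49) and *Fmo2* at -1.10 (SE 0.29), both without overlap, and *Acot3*, described above, is on this list too.

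Among regulators of sex-biased liver expression, *Bcl6*, a male-biased repressor of growth hormone targets, was at 5.93, 9.89 and 3.18 CPM in WT livers and at 34.0, 13.7 and 21.6 CPM in *Sirt7* KO livers. No values overlapped, and the log2 fold change was 1.88 (SE 0.43, adjusted p 0.17). *Socs2*, a growth hormone-induced inhibitor of the same pathway, was at 44.5, 20.1 and 35.1 CPM in WT livers and at 10.1, 12.1 and 14.3 CPM in *Sirt7* KO livers, at -1.45 (SE 0.28, adjusted p 0.14). *Cish*, a related inhibitor, was at -0.88 (SE 0.38), the transcription factor gene *Onecut1* at -0.81 (SE 0.29) and the receptor gene *Ghr* at 0.37 (SE 0.15). *Stat5b*, the growth hormone-responsive factor, was at 0.23 (SE 0.19, adjusted p 0.70), with overlapping groups.

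For the P450 and epoxide hydrolase genes that act on arachidonic acid beside CYP4A, 3 of 12 tested genes had an unadjusted p under 0.05, 2 lower and 1 higher in *Sirt7* KO mice, against 11.3% of all tested genes. *Cyp2c38*, an epoxygenase, was at 157, 86.2 and 86.5 CPM in WT livers and at 34.1, 51.0 and 20.5 CPM in *Sirt7* KO livers, at -1.64 (SE 0.35, adjusted p 0.15). *Ephx1*, which encodes microsomal epoxide hydrolase, was at -0.84 (SE 0.19, adjusted p 0.17), and *Cyp2u1* is given above.

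**Figure D5:**
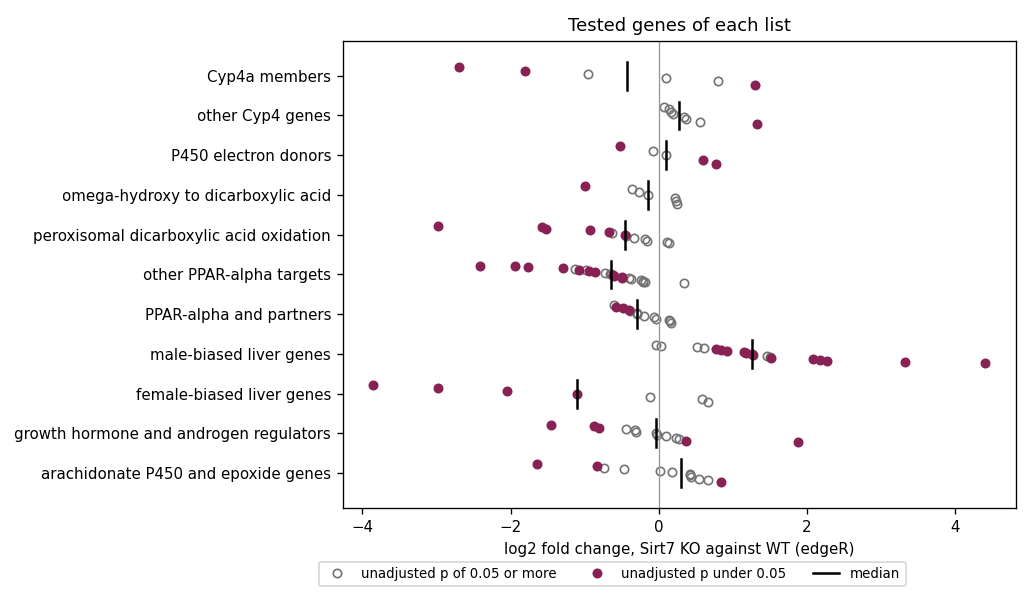
Log2 fold change of *Sirt7* KO against WT (horizontal axis) for each tested gene of the *Cyp4a* members and 10 gene lists; filled points have an unadjusted edgeR p under 0.05 and black lines are medians. The peroxisomal and PPAR-alpha target lists lie mostly left of 0, with medians of -0.45 and -0.64, and the male-biased list lies mostly right, with a median of 1.26.

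Genes whose log2 CPM ran most nearly parallel to the members over the 6 livers were sought among 6674 tested genes with a mean of at least 10 CPM. For the sum of *Cyp4a10*, *Cyp4a31*, *Cyp4a32* and *Cyp4a14* these were *Cacybp* (Pearson r 0.99), *Ppm1a* (0.99), *Slc27a1* (0.99), *Rabggtb* (0.99) and *Tbca* (0.99). *Slc27a1*, which encodes a fatty acid transport protein, averaged 33.9 CPM in WT livers and 12.9 CPM in *Sirt7* KO livers, with the mice in the same order as for *Cyp4a10*. For *Cyp4a12a* and *Cyp4a12b* together they were *Lgals8* (0.99), *Tysnd1* (0.98), *Cyp2f2* (0.98), *Atg13* (0.97) and *Odr4* (0.97). *Cyp2f2*, a P450 of periportal hepatocytes, was at 942, 2044 and 1888 CPM in WT livers and at 2665, 2302 and 2183 CPM in *Sirt7* KO livers, with WT replicate 1 again the lowest. These correlations describe 6 livers that share the genotype contrast and were the highest of many.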

How the data were processed

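Liver RNA of 3 WT and 3 *Sirt7* KO mice was analyzed. Genotypes were taken from the sample labels, which number 3 biological replicates per genotype. The libraries were made with SMART-seq HT and Nextera XT, and 75-base single-end reads were trimmed with Trim Galore 0.6.5 and quantified with Salmon 1.2.1 on the GRCm38 transcriptome. For each liver the authors deposited estimated counts of reads per transcript, which are not normalized and need not be whole, and TPM, which the authors' Salmon run scaled to effective length and to a total per liver. No molecular identifiers are named, so depth covers counting error only. A read that matches more than 1 *Cyp4a* copy was shared out by the statistical model of Salmon.

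Estimated counts and TPM were summed per gene of GENCODE M21. Of 140992 transcripts, 139172 matched with the same version, 619 matched with a different version, and 1201 without a gene in this release were dropped (0.303% to 0.492% of reads). Gene counts were rounded and tested with edgeR 4.0.16 (R 4.3.3; quasi-likelihood test, TMM, filterByExpr with a minimum count of 10, no covariates), with Benjamini-Hochberg adjustment over 12524 genes. Genes were called at an adjusted p under 0.05 and a fold change over 1.5. CPM are TMM-scaled. Fold changes are *Sirt7* KO against WT. Merged rows were fitted in the same table with the copies summed. Permutation tests used log2(CPM + 0.5). Alternatives were other normalizations and filters, length offsets, DESeq2 1.42.0 (the tool of the study, after its average-length import), a replicate block, different thresholds and leaving out each mouse. Recounting the gene lists with each mouse left out, and summing the female-biased genes without *Acot3*, were added after seeing the data. The test scripts were checked on simulated counts. There edgeR recovered 28.7% of 2-fold and 75% of 4-fold changes, and 8.53% of its calls were false. DESeq2 recovered 48.3% and 82%, and 17.7% of its calls were false. All livers differed by more than sampling noise (chi-square per gene of at least 16.9) and count as separate samples.

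Coding sequences, 31- and 75-base words and coordinates come from the GENCODE M21 transcripts, with Biopython 1.88 in Python 3.11.15. The members and gene lists were chosen with earlier results of these data known. Beside the members, the text names up to 5 genes of each list with the smallest unadjusted p under 0.05, the regulators *Ppara*, *Rxra*, *Stat5b* and *Bcl6* (a further regulator is not reported here), the flanking genes and the 5 genes most alike to each group. *Kap*, *Slc34a1*, *Cyp2b10* and *Cyp2c40* were named after their values were seen. Pericentral, periportal, cholangiocyte, Kupffer cell, endothelial, stellate cell, lymphocyte and adipocyte markers were also summed. For these lists 3 genes had an unadjusted p under 0.05, all higher in *Sirt7* KO mice. They were *Gulo* and *Cyp1a2*, 2 of 9 tested pericentral genes, and *Cdh1*, 1 of 8 tested periportal genes. Of all tested genes, 6.54% had such a p in that direction. Negative fold changes were found for 4 of the 9 pericentral and 1 of the 8 periportal genes.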

Additional observations from a re-analysis of the deposited data

How the results depend on the processing

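The edgeR fit called 1 gene. Scaling by library totals alone called 2 (and moved the median of all genes to -0.11 on the log2 scale), length offsets 2, no filter on low counts 633, DESeq2 256 without and 242 with length offsets, an unadjusted p 1418, and an unadjusted p with the fold limit 925. Without the filter, log2 fold changes of -1.81 (*Cyp4a10*), -2.70 (*Cyp4a14*), -0.96 (*Cyp4a31*), 1.30 (*Cyp4a12a*), 0.80 (*Cyp4a12b*), -1.75 (*Cyp4a10* with its copies) and 1.15 (*Cyp4a12* pair) all passed the adjusted threshold. The cause was not tested. DESeq2 with length offsets called *Cyp4a12a* at 1.32, but not the *Cyp4a12* pair at 1.16 (adjusted p 0.077). Leaving out 1 mouse gave 0 to 252 calls, -2.66 to -1.47 for *Cyp4a10*, -3.92 to -2.21 for *Cyp4a14*, -2.56 to -1.42 for *Cyp4a10* with its copies, -1.94 to -1.09 for the family sum and -0.17 to 0.27 for *Cyp4a32*, the 1 member whose sign turned. The 252 calls, and the lowest values for *Cyp4a10*, *Cyp4a14*, *Cyp4a10* with its copies and the family sum, came without *Sirt7* KO replicate 1. Whether the replicate numbers pair the mice could not be told. Correlations of deviations were 0.06, 0.07 and -0.05 for equal numbers and -0.10 to 0.05 for different numbers. With a replicate block 41 genes were called and no member (*Cyp4a10* -2.10, *Cyp4a14* -3.30, *Cyp4a12a* 1.35). Shared sequence limits the values of single copies other than *Cyp4a14*, and depth limits those of *Cyp4a31*, at 23 to 296 reads per liver.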
